A study of Mus musculus with 8 samples.

Results

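Matrix metalloproteinases and their inhibitors were followed through mouse macrophages of 3 genotypes. The family comprised 10 genes, 7 encoding metalloproteinases (Mmp2, Mmp8, Mmp9, Mmp12, Mmp13, Mmp14 and Mmp19) and 3 encoding tissue inhibitors (Timp1, Timp2 and Timp3). They were taken by symbol from the 24421 gene symbols counted in every library, and all 10 were present and passed the filter on low counts. RNA-seq libraries of primary macrophages carried 3 genotype labels, WT for wild type (3 libraries), LysM-DKO (3) and ABCG1KO (2), and a normal diet was given for all 8. The series design calls the LysM-DKO cells epsin double knockouts; LysM names the lysozyme promoter commonly used to drive Cre in myeloid cells, and the labels state neither the Cre allele, the tissue, the age, the sex nor whether animals were pooled. The study asked how macrophage epsins, adaptors of clathrin-mediated endocytosis, bear on lipid handling and on cholesterol export by the transporter ABCG1.

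Matrix metalloproteinases are zinc-dependent endopeptidases made as latent precursors and activated outside the cell or at its surface. Between them they cleave collagens, elastin, basement membrane and many non-matrix proteins. The tissue inhibitors bind the active site of the enzymes, so that matrix turnover depends on the level of both. In the atherosclerotic plaque, macrophages are a main source of these enzymes, and their activity is known for its part in thinning of the fibrous cap.

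The genes that the genotypes name and the identity of the cells were examined first. Epn1 was at 191 to 230 CPM in WT (counts scaled to library size) and at 155 to 183 CPM in the libraries labelled LysM-DKO, so that 81.1% of the WT mean remained, and it was at 155 and 182 CPM in ABCG1KO too. Epn2 was at 4.97 to 8.86 CPM in WT, 5.67 to 13.2 CPM in LysM-DKO and 18.5 to 18.6 CPM in ABCG1KO. Neither difference of LysM-DKO from WT was past the threshold (edgeR Benjamini-Hochberg adjusted p 0.430 for Epn1 and 0.852 for Epn2), and every direction given for LysM-DKO rests on that label. Abcg1 was at 345 to 405 CPM in WT and at 60.4 and 73.4 CPM in ABCG1KO, which is -2.52 in log2 fold change (SE 0.372; adjusted p 0.00414 in edgeR). The macrophage markers Adgre1 (425 to 1451 CPM), Cd68 (917 to 2662 CPM) and Csf1r (910 to 3051 CPM) were present in all 8 libraries, but not at equal levels. Adgre1 rose by 1.21 on the log2 scale in ABCG1KO against WT (edgeR adjusted p 0.0147), Csf1r rose by 1.19 (edgeR adjusted p 0.0173) and Cd68 fell by 1.06 (edgeR adjusted p 0.0192). Lyz2, the lysozyme gene, was at 46.9% of WT in LysM-DKO (edgeR adjusted p 0.173). Libraries held 29567615 to 41888516 counts in genes. The ABCG1KO libraries also stood apart in their reads, with 11.8% assigned to no gene against 5.32% in WT and 5.42% in LysM-DKO. Xist, which female cells express, ranged from 79.1 to 265 CPM in all WT libraries and in LysM-DKO 2 and 3. It was at 0.0485 CPM in LysM-DKO 1 and had no count in ABCG1KO, and in these 3 libraries the Y-linked gene Ddx3y reached 81.6 to 94.8 CPM. Genotype, sex and the share of unassigned reads cannot be told apart between ABCG1KO and WT. Within LysM-DKO, sex cannot be told apart from any other difference between replicate 1 and replicates 2 and 3. Whether all groups were aligned with the same tool is not given in the sources used here. Nothing in the labels states that replicates came from separate animals, and p-values measure the spread between these libraries.

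Loci are given on GRCm38, the mm10 assembly named in the submitters' processing notes (positions from GENCODE M21). Mmp13 (chr9:7272514-7283331, 10 exons in its principal transcript), Mmp12 (chr9:7344381-7369499, 10 exons) and Mmp8 (chr9:7558456-7568485, 10 exons) lie in a cluster of metalloproteinase genes on chromosome 9. Mmp2 lies at chr8:92827291-92853420, Mmp9 at chr2:164940780-164955850, Mmp14 at chr14:54431612-54445364 and Mmp19 at chr10:128790910-128800824. Timp1 (chrX:20870166-20874735) lies within the span of Syn1 on the opposite strand, and Timp3 (chr10:86300372-86349506) within that of Syn3 on the opposite strand. Timp2 is on the minus strand at chr11:118301069-118355740. The strand setting of the counting is not given in the sources used here, and 2 members share exonic positions with another gene to a larger extent. For Timp3 this was 21.3% of its annotated exonic bases, shared with Syn3, and for Mmp19 28.3%, shared with Tmem198b and Gm47093, so both levels are uncertain to that extent. Syn3 itself had only 25 to 77 counts and Tmem198b 418 to 601 counts per library. The other overlap was 2.17% for Mmp12, with Mmp1b, which had at most 4 counts in any library.

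Upstream sequences from RefSeq (GRCm38.p6) were found for 7 of the 10 genes, and not for Mmp2, Mmp9 and Mmp19. Mmp12 had 2 such windows, of which only the one at the start of its principal transcript was used. Shown are the 250 bases before the RefSeq start of 4 genes, chosen as a pair of chromosome 9 neighbours with lower means in ABCG1KO than in WT (Mmp12, chr9:7347124-7347373, and Mmp13, chr9:7272264-7272513) and 2 of the genes with higher means there, of which Mmp14 was called and Timp1 was not (Mmp14, chr14:54431348-54431597, and Timp1, chrX:20869916-20870165). All 4 are on the plus strand, and capitals mark matches to the AP-1 motif TGANTCA and the PEA3 motif AGGAAG on either strand and to the TATA motif TATAAA on the sense strand.
Mmp12: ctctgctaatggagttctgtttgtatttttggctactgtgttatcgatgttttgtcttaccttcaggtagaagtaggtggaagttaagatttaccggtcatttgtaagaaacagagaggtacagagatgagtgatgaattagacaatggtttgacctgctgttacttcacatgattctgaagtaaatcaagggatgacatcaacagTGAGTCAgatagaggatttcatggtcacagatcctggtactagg
Mmp13: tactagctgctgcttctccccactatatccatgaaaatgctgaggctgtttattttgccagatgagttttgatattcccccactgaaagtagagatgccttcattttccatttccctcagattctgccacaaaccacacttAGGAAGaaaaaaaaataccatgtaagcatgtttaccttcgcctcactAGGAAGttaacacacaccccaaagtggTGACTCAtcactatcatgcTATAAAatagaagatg
Mmp14: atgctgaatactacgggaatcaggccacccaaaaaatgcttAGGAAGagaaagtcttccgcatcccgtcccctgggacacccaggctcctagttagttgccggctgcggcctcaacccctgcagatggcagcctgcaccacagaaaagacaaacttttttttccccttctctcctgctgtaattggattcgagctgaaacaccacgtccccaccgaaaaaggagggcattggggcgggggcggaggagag
Timp1: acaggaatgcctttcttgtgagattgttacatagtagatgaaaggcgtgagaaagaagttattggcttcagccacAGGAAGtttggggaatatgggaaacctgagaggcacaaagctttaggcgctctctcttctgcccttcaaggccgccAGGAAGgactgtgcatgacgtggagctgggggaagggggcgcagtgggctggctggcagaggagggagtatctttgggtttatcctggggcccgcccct
An AP-1 match was present in 2 of the 7 windows, at positions -44 to -38 from the start of Mmp12 and -35 to -29 from the start of Mmp13, against 6.75% of 32851 promoter windows of the same length. PEA3 matches were present in 5 of the 7 (Mmp8, Mmp13, Mmp14, Timp1 and Timp3) against 29.5% of all windows, and a TATA match in 1 (Mmp13) against 7.59%. No match overlapped another. A match describes these letters and is not a measured binding site.

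Per kilobase of principal transcript, Mmp12, which encodes macrophage elastase, was by far the most abundant of the 10 transcripts in WT. Its level was 2513 ± 619 CPM per kilobase (SD, n = 3), followed by Timp2, an inhibitor that also takes part in activation of Mmp2 at the cell surface, at 338 ± 38.7. Next came Mmp19 (45.3 ± 26.7), Mmp14 (43.4 ± 7.38), Mmp9 (26.5 ± 16.97) and Mmp13 (22.3 ± 26.1), whose neighbours in this order did not differ beyond their spread. Timp1 (7.33 ± 2.78), Mmp8 (5.19 ± 2.00), Timp3 (4.37 ± 0.686) and Mmp2 (1.91 ± 1.41) were lowest. The WT ranges of Timp1 (4.19 to 9.50), Mmp8 (2.88 to 6.39) and Timp3 (3.60 to 4.915) overlapped. In contrast, the WT libraries of Mmp2 reached at most 3.53, below every WT value of Timp3. The order depends on the transcript chosen for the length, 3607 bases for Mmp12 and 3709 for Timp2. In ABCG1KO, Mmp12 (359 ± 234, n = 2) and Timp2 (298 ± 6.10) were no longer apart, as ABCG1KO 1 held 194 CPM per kilobase of Mmp12 and 302.5 of Timp2, while ABCG1KO 2 held 524 and 294.

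**Figure D1:**
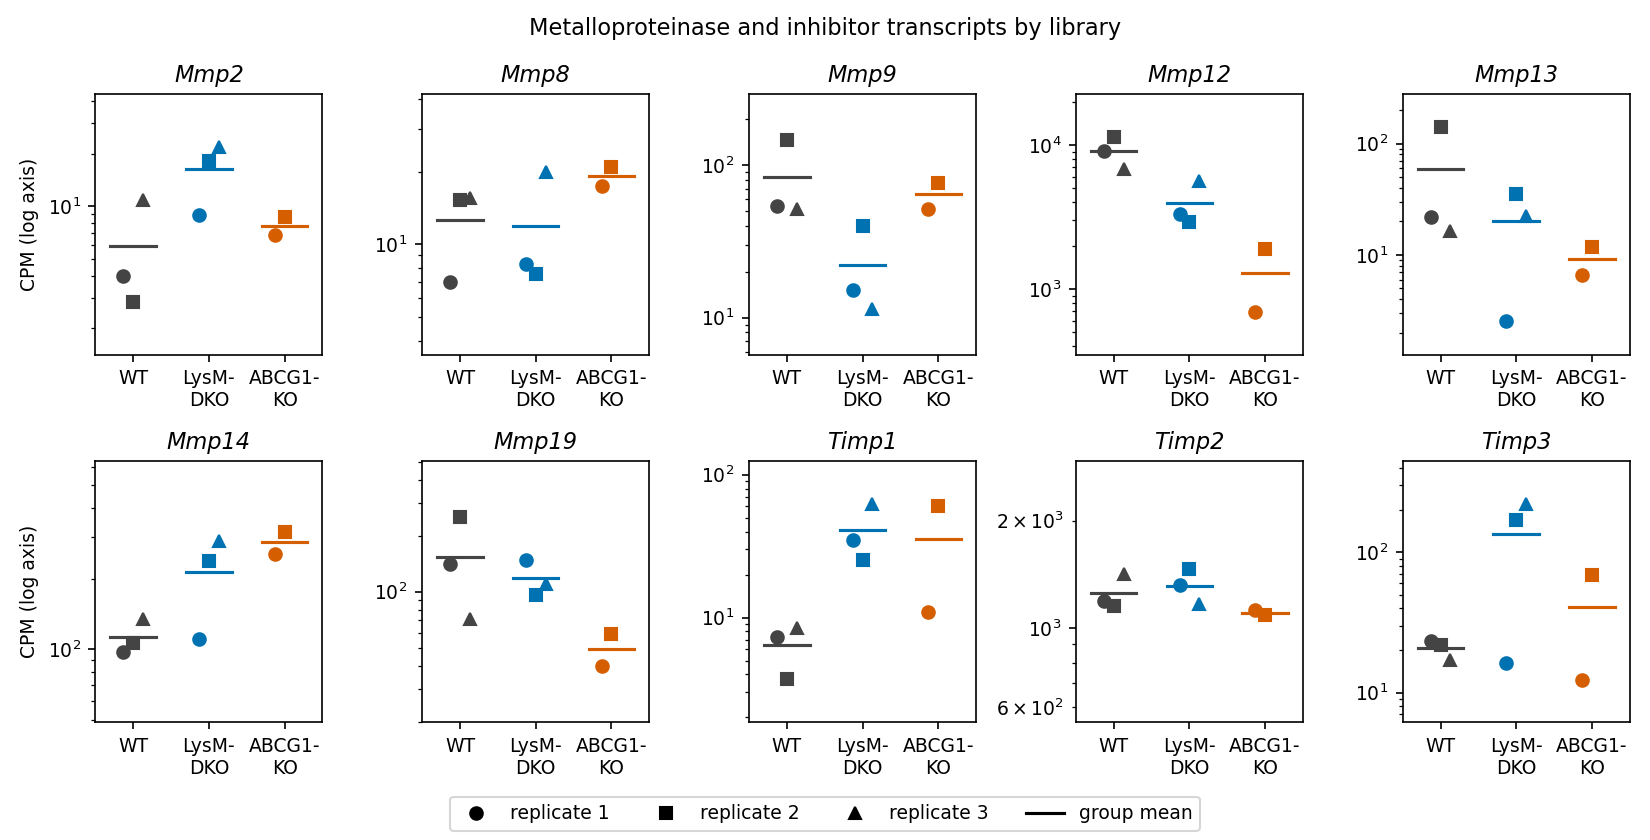
CPM of each metalloproteinase and inhibitor transcript in every library (log axis, marker shape for the replicate, line for the group mean). Mmp12 separated the 3 groups, from 6843 to 11310 CPM in WT down to 699 and 1891 CPM in ABCG1KO, and Timp3 split LysM-DKO, with 16.1 CPM in replicate 1 and 169 and 222 CPM in replicates 2 and 3.

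Mmp12 transcripts were lower than in WT in every library labelled LysM-DKO or ABCG1KO, and past the threshold in ABCG1KO. The 3 WT libraries held 9038, 11310 and 6843 CPM, the LysM-DKO libraries 3349, 2905 and 5623 CPM, and the ABCG1KO libraries 699 and 1891 CPM. No library of one group overlapped those of another. In WT the transcript took 0.642% to 1.04% of all counts and ranked 8th to 10th among all genes, while in ABCG1KO 1 it took 0.0754% and ranked 141st. The log2 fold change in ABCG1KO against WT was -2.81 (SE 0.508, edgeR adjusted p 0.00982), which left 14.3% of the WT mean, and it was called in each of the fits tried, between -3.70 without ABCG1KO 2 and -2.27 without ABCG1KO 1. In LysM-DKO against WT it was -1.19 (SE 0.409, edgeR adjusted p 0.354), or 43.7% of the WT mean, and was not past the threshold. Set against ABCG1KO, LysM-DKO was at 1.61 (SE 0.478, edgeR adjusted p 0.0599), past the threshold with DESeq2 (1.59, adjusted p 0.00222) and without ABCG1KO 2 (2.51).

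The 9 markers of resident peritoneal macrophages summed to 66.5 to 555 CPM in WT, to 40.3 to 283 CPM in LysM-DKO and to 12170 and 4330 CPM in ABCG1KO 1 and 2. In ABCG1KO against WT, 5 of the 9 were called higher and 0 lower, beside 7.21% and 8.83% of all genes. The most abundant were Saa3 (9953 and 2971 CPM in ABCG1KO), Cd5l (577 and 1029 CPM) and Alox15 (885 and 135 CPM), and Cd5l was not called. Of both ABCG1KO libraries, the one with less Mmp12 had the higher sum, which was mostly Saa3. Cd5l and Gata6 (28.7 and 32.6 CPM) were higher in ABCG1KO 2, and the other markers of the list in ABCG1KO 1. In WT, where most of the sum was Cd5l (176, 383 and 43.3 CPM), the order was the opposite. WT 2 was highest and WT 3 lowest in both Mmp12 and the sum. In LysM-DKO the sum did not exceed the WT range while Mmp12 lay below WT. The 8 mast cell markers summed to 0.233 to 5.36 CPM in WT, 0.194 to 0.756 CPM in LysM-DKO and 52.9 and 9.20 CPM in ABCG1KO. Of these, 1 of 5 tested, Kit, was called higher in ABCG1KO against WT, beside 7.21% of all genes. The 6 B cell markers summed to 3.13 to 38.2 CPM in WT, 0.0242 to 1.51 CPM in LysM-DKO and 16.3 and 3.04 CPM in ABCG1KO. By edgeR, 0 were called in LysM-DKO against WT, beside 0.0362% of all genes. An unadjusted p under 0.05 was found for 5 of 6, beside 11.7% of all genes. The part of such cells in the Mmp12 difference was not tested, and in bulk libraries fewer cells of a type and less RNA per cell cannot be told apart.

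The other secreted collagenases and gelatinases were much less abundant and varied between libraries of a group. Mmp13, the main interstitial collagenase of the mouse, was at 21.98, 140 and 16.6 CPM in WT, at 2.52, 35.6 and 22.6 CPM in LysM-DKO, and ABCG1KO held 6.65 and 11.7 CPM. Replicate 2 was the highest library in WT and in LysM-DKO, and both ABCG1KO libraries lay below every WT library. Neither difference from WT was past the threshold (log2 fold change -2.69, SE 1.28, edgeR adjusted p 0.196 in ABCG1KO; -1.56, SE 1.05, adjusted p 0.570 in LysM-DKO). Without WT 2 these values were -1.07 and 0.04. The LysM-DKO value of Mmp13 thus rests on WT 2, and the ABCG1KO value kept its direction but not its size without that library.

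Mmp9, gelatinase B, which degrades basement membrane collagen, was at 54.3, 146 and 51.9 CPM in WT, at 15.3, 39.8 and 11.4 CPM in LysM-DKO, and ABCG1KO held 51.6 and 77.0 CPM. All LysM-DKO libraries lay below all WT and all ABCG1KO libraries, while WT and ABCG1KO overlapped. The log2 fold change in LysM-DKO was -1.93 against WT (SE 0.583, edgeR adjusted p 0.354) and -1.54 against ABCG1KO (SE 0.623, edgeR adjusted p 0.142). Both were past the threshold with DESeq2 (-1.95, adjusted p 0.0108, and -1.57, adjusted p 0.0293). In ABCG1KO against WT the value was -0.39 (SE 0.635, edgeR adjusted p 0.717), and 0.27 without WT 2.

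Mmp2, gelatinase A, stood at the lowest mean level per length in WT and ABCG1KO, and in LysM-DKO just above Mmp8. It was at 3.99, 2.82 and 10.9 CPM in WT, at 8.87, 18.1 and 22.04 CPM in LysM-DKO, and ABCG1KO held 6.87 and 8.66 CPM. WT 3 lay above LysM-DKO 1, and WT and ABCG1KO overlapped. The log2 fold changes of 1.47 in LysM-DKO (SE 0.533, edgeR adjusted p 0.375) and 0.40 in ABCG1KO (SE 0.582, edgeR adjusted p 0.683) were not past the threshold, and without WT 3 they were 2.26 and 1.19. Mmp8, a collagenase best known from neutrophil granules, was at 6.98 to 15.5 CPM in WT, 7.51 to 19.9 CPM in LysM-DKO and 17.5 and 21.0 CPM in ABCG1KO. LysM-DKO overlapped WT in Mmp8, while both ABCG1KO libraries lay above every WT library. The log2 fold changes of Mmp8 against WT were -0.08 in LysM-DKO (edgeR adjusted p 0.957) and 0.61 in ABCG1KO (SE 0.480, edgeR adjusted p 0.422). Neither was past the threshold.

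Neutrophils are a possible source of Mmp8 and Mmp9, and most of their defining markers were at or near 0, with an exception in ABCG1KO 1. Of 11 neutrophil markers in the files, Retnlg had no count in any of the 8 libraries, S100a9 had none in WT and LysM-DKO and at most 0.157 CPM in ABCG1KO, and S100a8 was at 0.800 to 5.55 CPM. Prtn3, which encodes a neutrophil granule protease, was at 38.01 CPM in ABCG1KO 1 and at 0 to 0.896 CPM in the other libraries (edgeR adjusted p 0.0684 in ABCG1KO against WT). Summed levels were 90.2 to 135 CPM in WT, 64.2 to 87.4 CPM in LysM-DKO and 392 and 208 CPM in ABCG1KO. They came mostly from Csf3r, which macrophages also express (59.6 to 348 CPM). In ABCG1KO against WT, 1 of 5 tested neutrophil markers, Csf3r, was called higher and 0 lower, beside 7.21% and 8.83% of all genes. Csf3r rose by 1.40 on the log2 scale (SE 0.272, edgeR adjusted p 0.0131), to 348 and 204 CPM in ABCG1KO 1 and 2. The part of neutrophils in the Mmp8 and Mmp9 values was not tested.

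Mmp19, a basement membrane protease whose counts share positions with Tmem198b, was at 140.0, 251 and 71.2 CPM in WT, at 148, 95.5 and 110 CPM in LysM-DKO, and ABCG1KO held 39.8 and 59.1 CPM. Both ABCG1KO libraries were below all others. The log2 fold change in ABCG1KO against WT was -1.64 (SE 0.495, edgeR adjusted p 0.0604), just outside the threshold, and it was called with DESeq2 (-1.63) and without WT 3 (-1.98). In LysM-DKO against WT it was -0.39 (SE 0.417, edgeR adjusted p 0.726), and 0.13 without WT 2.

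Mmp14, the membrane-anchored metalloproteinase that activates Mmp2 and cleaves collagen around the cell, was higher in ABCG1KO. It was at 97.6, 106 and 134 CPM in WT, at 254 and 317 CPM in ABCG1KO and at 111, 238 and 290 CPM in LysM-DKO. The ABCG1KO libraries lay above all WT libraries, whereas LysM-DKO 1 lay among the WT libraries and LysM-DKO 2 and 3 beside ABCG1KO. By Xist and Ddx3y, LysM-DKO 1 also differed from LysM-DKO 2 and 3 in sex. Mmp14 rose by 1.34 on the log2 scale in ABCG1KO against WT (SE 0.355, edgeR adjusted p 0.0385), or 2.54-fold. Leaving out any 1 of the 5 libraries ended this call, with values of 1.17 (without ABCG1KO 2) to 1.49 (without WT 3 or ABCG1KO 1) and edgeR adjusted p-values of 0.0661 to 0.1301. LysM-DKO differed from WT by 0.92 on the same scale (SE 0.324, edgeR adjusted p 0.368), and 1.21 without LysM-DKO 1.

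The inhibitor Timp1, a secreted protein induced in many inflamed and healing tissues, was higher than in WT in every library labelled LysM-DKO or ABCG1KO. WT held 7.33, 3.70 and 8.39 CPM, LysM-DKO 35.0, 25.4 and 62.2 CPM and ABCG1KO 10.9 and 60.1 CPM. Neither group overlapped WT, but ABCG1KO 1 was close to it. In log2 fold change LysM-DKO stood at 2.66 (SE 0.660, edgeR adjusted p 0.307), a 6.32-fold difference of the means, and ABCG1KO at 2.46 (SE 0.696, edgeR adjusted p 0.0508), a 5.49-fold difference. Neither was past the threshold in this fit. With DESeq2 both were (2.64, adjusted p 0.00065, and 2.46, adjusted p 0.00105). The ABCG1KO value depended on the library, at 0.75 without ABCG1KO 2 and 3.20, past the threshold, without ABCG1KO 1. It was also past the threshold with library size only (2.7), with at least 10 counts in every library (2.49) and with a prior that was not robust (2.46, edgeR adjusted p 0.0434).

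Timp2 differed little between groups. It was at 1190, 1150 and 1416 CPM in WT, at 1317, 1468 and 1165 CPM in LysM-DKO, and ABCG1KO held 1122 and 1090 CPM. The log2 fold changes were 0.07 (SE 0.158) and -0.18 (SE 0.177) against WT, and the latter turned to 0.05 with library size only.

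Timp3, which binds to the matrix and also inhibits ADAM17, divided the libraries within LysM-DKO and within ABCG1KO. It was at 23.2, 21.7 and 17.0 CPM in WT, at 16.1 CPM in LysM-DKO 1, and much higher in LysM-DKO 2 and 3, at 169 and 222 CPM. The ABCG1KO libraries held 12.3 and 69.2 CPM. LysM-DKO 1 and ABCG1KO 1 were thus below every WT library and the other libraries of these groups above them. Within LysM-DKO this split cannot be told apart from sex, as replicate 1 differed from replicates 2 and 3 in Xist and Ddx3y. In log2 fold change LysM-DKO was at 2.72 (SE 0.935, edgeR adjusted p 0.362) and 3.23 without LysM-DKO 1, and 0.98 in ABCG1KO (SE 0.972, edgeR adjusted p 0.533) and -0.75 without ABCG1KO 2. None of these values was past the threshold.

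**Figure D2:**
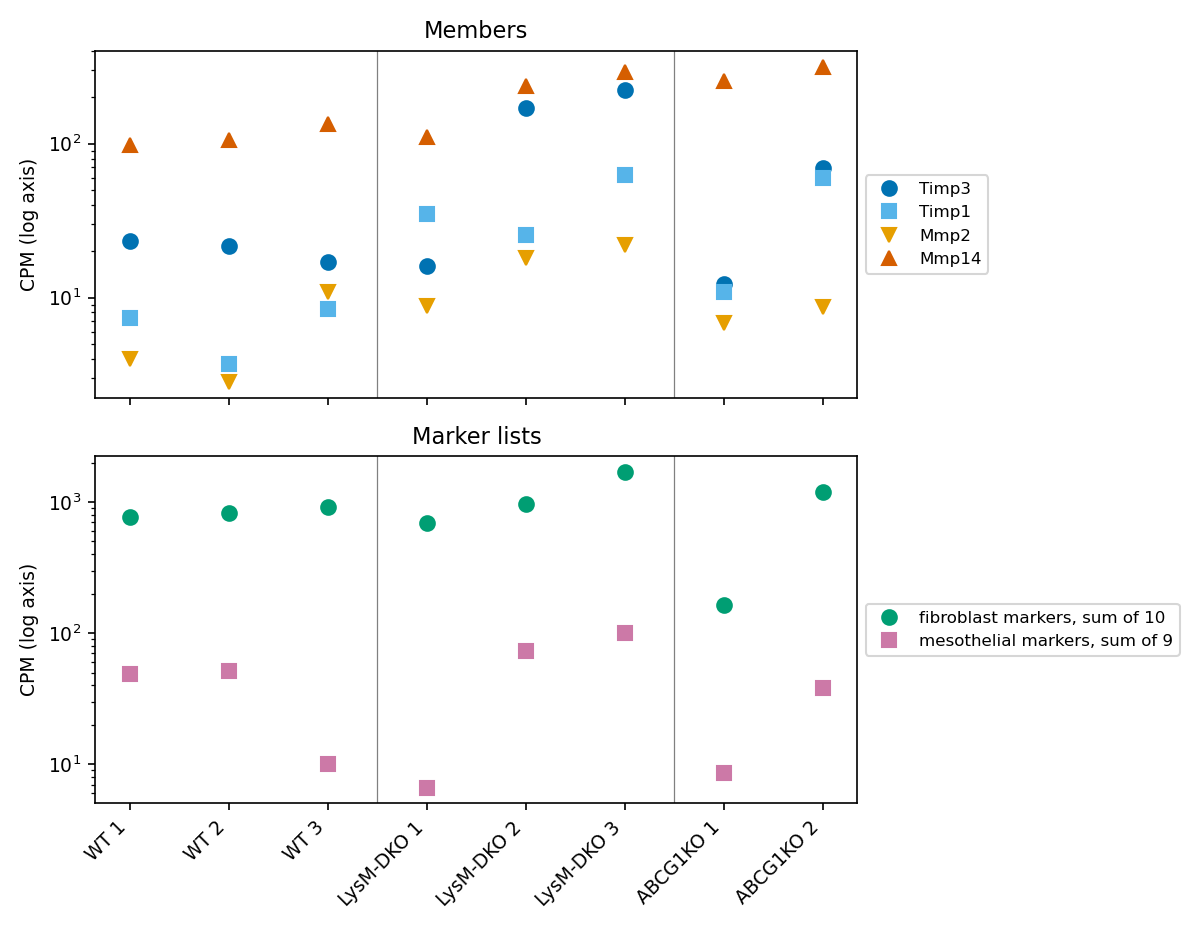
CPM by library (log axis) of Timp3, Timp1, Mmp2 and Mmp14, above the summed CPM of 10 fibroblast and 9 mesothelial markers in the same libraries. Timp3 and both sums were highest in LysM-DKO 3, and both sums were lower in ABCG1KO 1 than in ABCG1KO 2.

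Fibroblasts and mesothelial cells also make several of these inhibitors and enzymes, and their markers were summed by library. The 10 fibroblast markers summed to 768 to 922 CPM in WT, to 695, 971 and 1698 CPM in LysM-DKO 1, 2 and 3 and to 163 and 1197 CPM in ABCG1KO 1 and 2. The 9 mesothelial markers summed to 9.96 to 51.4 CPM in WT, to 6.64, 73.2 and 101 CPM in LysM-DKO and to 8.53 and 38.4 CPM in ABCG1KO. Within LysM-DKO and within ABCG1KO the order of these sums was that of Timp3, an order of only 3 and 2 libraries. In WT the mesothelial sum ranged widely at a nearly constant Timp3. The WT fibroblast sum ran opposite to Timp3, at 768, 829 and 922 CPM against 23.2, 21.7 and 17.0 CPM in WT 1, 2 and 3. Single markers did not all follow that order. In LysM-DKO 1, 2 and 3, Col1a2 did (338, 404 and 599 CPM), while Col3a1 (60.7, 227 and 186 CPM) and Dcn (35.2, 85.7 and 65.7 CPM) did not. All 10 fibroblast markers were detected in WT and LysM-DKO, and Dpt had no count in either ABCG1KO library. None of the 19 markers was called in LysM-DKO against WT by edgeR, beside 0.0362% of all genes. An unadjusted p under 0.05 was found for 1 of the 19, a fibroblast marker, beside 11.7% of all genes. In ABCG1KO against WT, 1 fibroblast marker, Lum, was called lower, beside 8.83% of all genes. The part of these cells in the Timp3, Timp1, Mmp2 and Mmp14 values was not tested, and LysM-DKO 1 also differed in sex from LysM-DKO 2 and 3.

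In LysM-DKO against WT, 0 of the 10 genes were called by edgeR at an adjusted p under 0.05, where 0.0362% of 13821 genes were called (0.0217% higher and 0.0145% lower). With DESeq2, 2 were called, Mmp9 and Timp1. At an unadjusted p under 0.05 there were 6 of 10 (Mmp2, Mmp9, Mmp12, Mmp14, Timp1 and Timp3), beside 11.7% of all genes. The groups did not overlap for 3 of the 10 (Mmp9 and Mmp12 lower, Timp1 higher), beside 21.0% of all genes (9.98% lower). The median log2 fold change of the 10 was 0.00, with 5 above and 5 below 0, and that of all genes 0.02.

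In ABCG1KO against WT, 2 of the 10 were called, Mmp14 higher and Mmp12 lower, beside 16.0% of all genes (7.21% higher and 8.83% lower). That share was 996 genes higher and 1220 lower, and 2074 higher and 856 lower with library size only. The groups did not overlap for 7 of the 10 (Mmp8, Mmp14 and Timp1 higher, Mmp12, Mmp13, Mmp19 and Timp2 lower), beside 48.2% of all genes (23.9% higher and 24.2% lower). At an unadjusted p under 0.05 there were 4 (Mmp12, Mmp14, Mmp19 and Timp1), beside 31.5% of all genes. The median was 0.11, and 0.01 over all genes. Between LysM-DKO and ABCG1KO, 0 of the 10 were called by edgeR, beside 13.4% of all genes (7.76% higher and 5.64% lower, or 1073 and 780 genes, and 877 higher and 1018 lower with library size only). There were 3 at an unadjusted p under 0.05 (Mmp9, Mmp12 and Mmp19), beside 30.9% of all genes, and these 3 were called with DESeq2. The groups did not overlap for 5 of the 10 (Mmp2, Mmp12, Mmp19 and Timp2 higher in LysM-DKO, Mmp9 lower), beside 48.2% of all genes (25.6% higher and 22.6% lower), and the median was 0.66, against 0.03 over all genes. The 3 comparisons share libraries pairwise and are not independent.

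**Figure D3:**
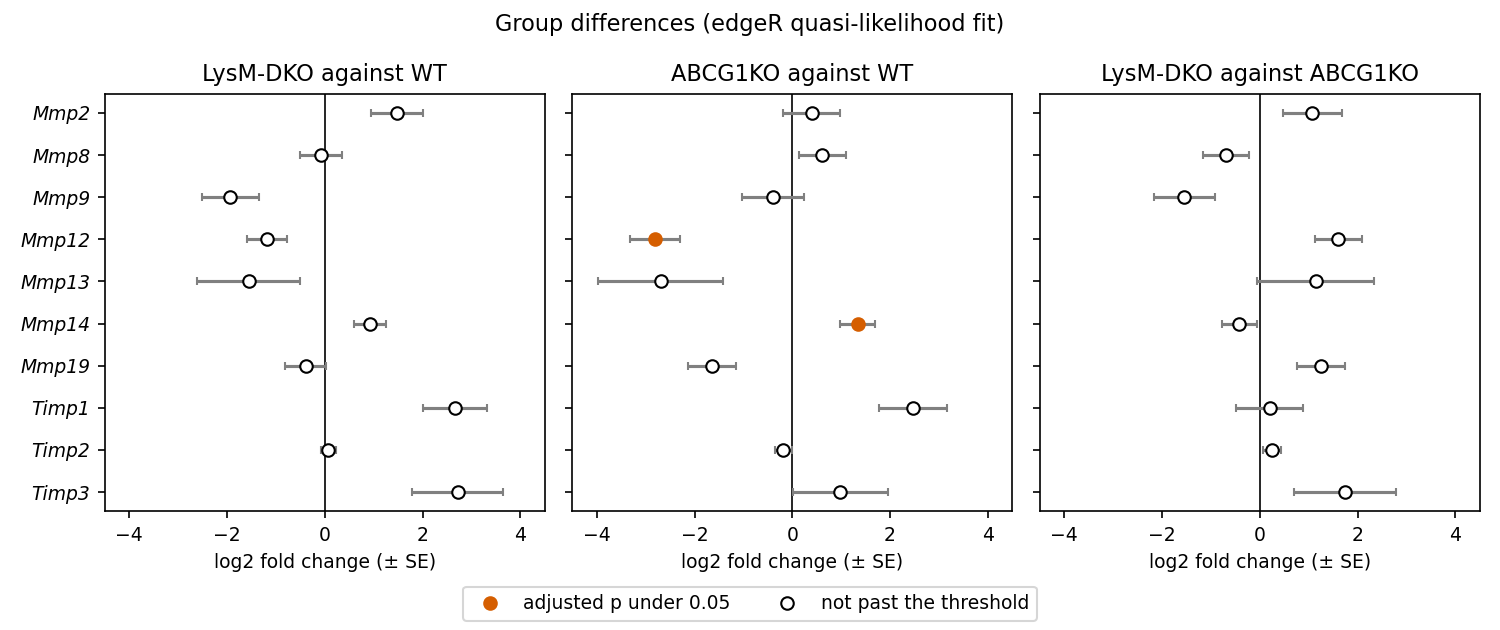
Log2 fold change with its SE for each of the 10 transcripts in the 3 comparisons, from the edgeR fit of all 8 libraries (filled points, adjusted p under 0.05). The filled points are Mmp12 (-2.81) and Mmp14 (1.34) in ABCG1KO against WT.

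The summed enzyme transcripts were compared with the summed inhibitor transcripts within each library, which does not depend on scaling between libraries. The 7 metalloproteinases summed to 2614, 3356 and 2002 CPM per kilobase in WT, to 1027, 960 and 1730 in LysM-DKO and to 332 and 704 in ABCG1KO. The 3 inhibitors summed to 319 to 395 in WT, 398 to 460 in LysM-DKO and 318 and 377 in ABCG1KO. The ratio of these sums was 7.83, 10.5 and 5.07 in WT, 2.58, 2.09 and 4.01 in LysM-DKO and 1.04 and 1.87 in ABCG1KO, so that no 2 groups overlapped. Mmp12 made up 93.4% to 95.9% of the enzyme sum in WT, 83.9% to 90.4% in LysM-DKO and 58.4% and 74.5% in ABCG1KO. Without Mmp12 the ratio was 0.266 to 0.691 in WT, 0.247 to 0.397 in LysM-DKO and 0.434 and 0.477 in ABCG1KO. The WT range then overlapped both others, while LysM-DKO lay below ABCG1KO, the reverse of their order with Mmp12. Timp2 made up 96.0% to 97.2% of the inhibitor sum in WT and 72.8% in LysM-DKO 3, where Timp1 and Timp3 were highest. These sums are of transcripts, and neither protein nor enzyme activity was measured.

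**Figure D4:**
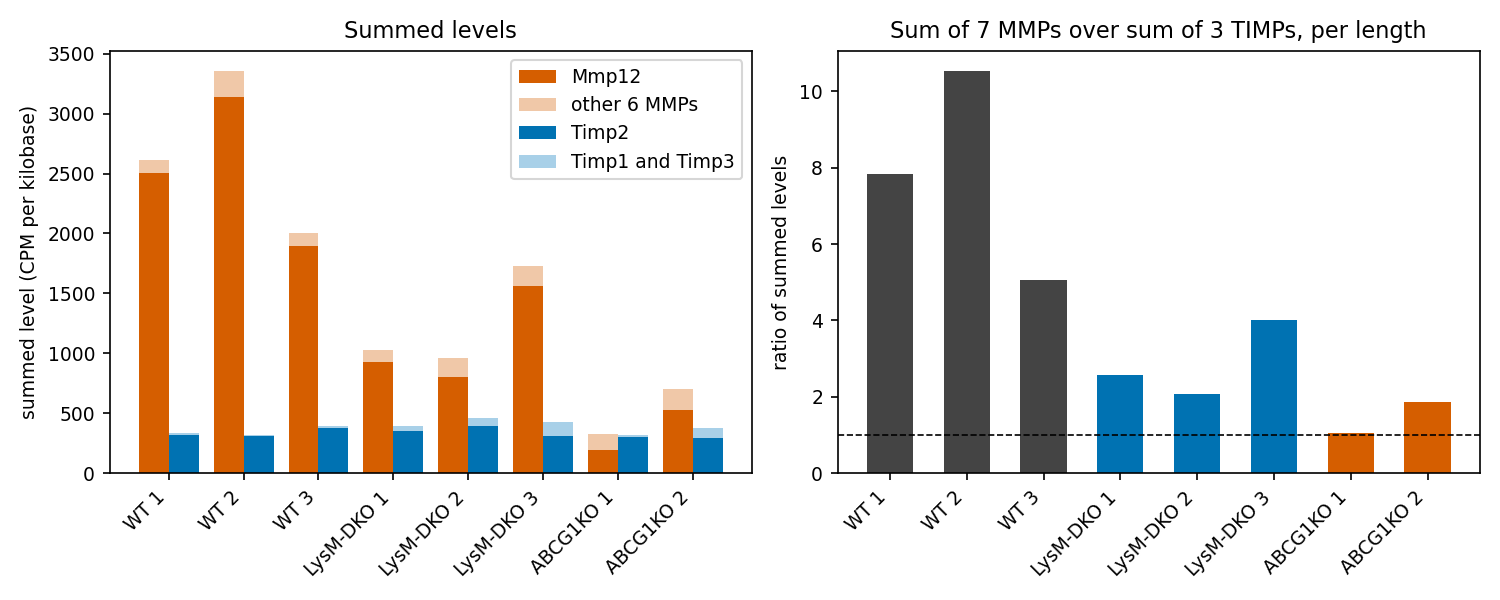
Left, summed level per kilobase of transcript by library, for 7 metalloproteinases and 3 inhibitors, with Mmp12 and Timp2 in the darker shades. Right, the ratio of both sums, from 5.07 to 10.5 in WT, 2.09 to 4.01 in LysM-DKO and 1.04 and 1.87 in ABCG1KO; the dashed line is a ratio of 1.

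Other metalloproteinases were scarce in these cells. Of 18 further genes (16 other metalloproteinases, Timp4 and the membrane inhibitor Reck), 10 passed the filter, Mmp1a, Mmp7 and Mmp20 had no count in any library, and Timp4 reached at most 0.0293 CPM. Mmp27, a neighbour of Mmp8, was the highest in WT at 10.6 to 28.8 CPM. Stromelysin, encoded by Mmp3, was at 6.77, 5.94 and 0.544 CPM in WT, at 27.7, 11.1 and 3.32 CPM in LysM-DKO, and ABCG1KO held 0.0627 and 0.0236 CPM, where it is at the detection floor. Mmp3 was the 1 gene of the 10 tested that was called in ABCG1KO against WT (lower, edgeR adjusted p 0.0353), beside 8.83% of all genes called lower. That call was lost in the fits without a count filter, without WT 1, without WT 2 and without either ABCG1KO library. None of the 10 was called by edgeR in LysM-DKO against WT, with 0 at an unadjusted p under 0.05, beside 0.0362% and 11.7% of all genes.

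Of 18 tested genes that activate, bind or clear the metalloproteinases, 5 were called higher and 1 lower in ABCG1KO against WT, beside 7.21% and 8.83% of all genes. In LysM-DKO against WT 0 were called by edgeR, beside 0.0362% of all genes, with 6 at an unadjusted p under 0.05, beside 11.7% of all genes. Thbs1, a matrix protein that binds several of these enzymes, rose by 3.53 on the log2 scale (SE 0.506, edgeR adjusted p 0.004), from 127 to 264 CPM in WT to 2314 and 2285 CPM. Furin, the convertase that activates membrane-type metalloproteinases, rose by 0.50 (SE 0.135, edgeR adjusted p 0.0404) in ABCG1KO, from 138 to 140 CPM to 208 and 184 CPM, a call lost in every fit that left out a library. The plasminogen activator receptor Plaur was at 159 to 314 CPM in WT, 39.8 to 96.7 CPM in LysM-DKO and 139 and 112 CPM in ABCG1KO, and was not called against WT.

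Among 13 ADAM and ADAMTS proteases, 1 was called in ABCG1KO against WT, beside 16.0% of all genes. Adam17, the sheddase of TNF that Timp3 inhibits, rose by 0.74 (SE 0.159, edgeR adjusted p 0.0187), from 200 to 258 CPM in WT to 381 and 378 CPM. That call was lost without WT 1, WT 2 or either ABCG1KO library. In LysM-DKO Adam17 was at 199 to 243 CPM. Lysosomal cathepsins, which degrade elastin and collagen inside the cell or when secreted, and their inhibitors had median log2 fold changes against WT of -0.47 in LysM-DKO and -0.76 in ABCG1KO, beside 0.02 and 0.01 over all genes. Of the 9, 2 were called lower in ABCG1KO, beside 8.83% of all genes, and 0 by edgeR in LysM-DKO, with 3 at an unadjusted p under 0.05, beside 11.7%. Ctsk, a collagenolytic cathepsin, fell by 3.67 (SE 0.514, edgeR adjusted p 0.0037), from 167 to 469 CPM in WT to 20.0 and 29.4 CPM. Ctss, an elastolytic cathepsin, fell by 1.06 (SE 0.220, edgeR adjusted p 0.0171), a call lost without ABCG1KO 1.

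Of 18 matrix substrates, 1 was called higher and 1 lower in ABCG1KO against WT, beside 16.0% of all genes, and 0 by edgeR in LysM-DKO, with 1 at an unadjusted p under 0.05, beside 11.7%. Fibronectin (Fn1) rose by 2.25 (SE 0.374, edgeR adjusted p 0.0068), from 861 to 1548 CPM to 7071 and 3524 CPM. Osteopontin (Spp1), a matrix protein that metalloproteinases cleave, fell by 3.93 (SE 0.562, edgeR adjusted p 0.00381), from 1799 to 5236 CPM to 208 and 316 CPM. Elastin (Eln), the substrate that gives macrophage elastase its name, was at 1.79 to 21.6 CPM in WT, 1.02 to 5.90 CPM in LysM-DKO and 1.63 and 2.24 CPM in ABCG1KO. Of 13 AP-1 and Ets factors, the families that bind the motifs printed above, 5 were called higher in ABCG1KO, beside 7.21% of all genes, and 0 by edgeR in LysM-DKO, with 4 at an unadjusted p under 0.05, beside 11.7%. Junb was at 159 to 223 CPM in WT and at 731 and 237 CPM in ABCG1KO 1 and 2 (log2 fold change 1.42, SE 0.396, edgeR adjusted p 0.0455), a call lost without any 1 of WT 1, WT 2, WT 3 and ABCG1KO 1; without ABCG1KO 1 the value was 0.38.

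The genes whose pattern over the 8 libraries was most like that of the called members were found by the root mean square difference in centred log2 CPM among 8501 other genes. For Mmp12, whose own log2 CPM had a standard deviation of 1.32, the nearest were Fam198b (difference 0.300), Igf2bp2 (0.318) and S100a11 (0.376). For Mmp14, with a standard deviation of 0.712, they were Ankrd28 (0.179), Ptgfrn (0.197) and Errfi1 (0.232). These genes were picked for this likeness, and no test was made of it.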

How the data were processed

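RNA was extracted from primary macrophages and sequenced in 8 libraries, per the labels' protocols. What was deposited for each is an unnormalized count for each gene symbol, in the layout that htseq-count writes. The submitters' processing notes name HTSeq 0.11.2, STAR 2.7.9a, TopHat, DESeq2 1.30.1, limma and mm10 without giving their roles; the annotation and strand setting are not given in the sources used here. The 5 lines that name no gene were left out. The line for multiply aligned reads held 2.94% of the total (WT), 2.80% (LysM-DKO) or 6.83% (ABCG1KO), that for reads in no gene 5.32%, 5.42% or 11.8%, and that for ambiguous reads 0.926%, 0.880% or 0.637%. A search of 50-base words in GENCODE M21 transcripts found at most 2.53% shared with other genes for 8 members, 21.4% for Timp3 and 24.7% for Mmp19.

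Counts were fitted in edgeR 4.0.16 (R 4.3.3): filterByExpr (13821 genes kept), TMM factors, 1 quasi-likelihood fit of all 8 libraries with a robust prior and 5 residual degrees of freedom, F tests, and Benjamini-Hochberg adjustment over all genes with a threshold of 0.05. CPM were taken over library sizes corrected by the TMM factors, and ± is the SD over libraries. Levels per kilobase used the principal GENCODE transcript. A count of 0 allows 3 counts, or 0.0708 to 0.0941 CPM, for counting error only. In simulated data with 200 changed genes and 3 simulations for each fold, 4-fold changes were recovered in 80.2% (LysM-DKO against WT, 13507 genes) and 66.0% (ABCG1KO against WT, 13516 genes), and 2-fold changes in 1.67% (13511 genes) and 0.667% (13533 genes). The simulations took their spread from the common dispersion of the fit (biological coefficient of variation 36.1%). Recovery of members that vary more between libraries is not given by these shares. Named were the 10 members, Epn1, Epn2 and Abcg1. From each pathway list, at most 5 called genes and some with a group mean of at least 100 CPM were named. Some marker lists gave their highest members or those at 0. The 3 nearest patterns were also named (likeness of log2(CPM + 0.5), genes of at least 10 CPM). The mesothelial, mast cell and B cell lists are given by sums and counts. For the endothelial and T cell lists only counts are given, here. In ABCG1KO against WT, 2 of 4 tested endothelial markers were called lower and 0 higher, beside 8.83% and 7.21% of all genes. Of 4 tested T cell markers, 0 were called there. Mmp27, Mmp1b, Mmp1a, Mmp7, Mmp20, Timp4, Eln, Lum, Kit, Lyz2, Xist and Ddx3y, and the overlapping genes, were named after their values were seen. The members and lists were chosen with earlier results of these data known. Alternatives were RLE factors, library size only, no filter, at least 10 counts in every library, DESeq2 1.42.0, both groups alone, a replicate block, each library left out and, added after seeing the data, a prior that was not robust.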

Additional observations from a re-analysis of the deposited data

How the results depend on the processing

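Over 400 refits of the 10 members in the 3 comparisons, 366 kept direction and side of the threshold, 14 gained a call, 5 lost one and 15 turned direction. The fall of Mmp12 in ABCG1KO against WT was called in all of them, with adjusted p-values from 2.5e-09 to 0.0426. The values that turned direction follow, and the cause was not tested. With library size only, which moved the median of all genes to 0.17 in LysM-DKO and 0.25 in ABCG1KO against WT, Mmp8 was at 0.07 in LysM-DKO and Timp2 at 0.05 in ABCG1KO. With libraries left out in turn, LysM-DKO against WT ranged from -0.67 to 0.16 for Mmp8, -2.25 to 0.04 for Mmp13, -0.73 to 0.13 for Mmp19, -0.03 to 0.17 for Timp2, -0.31 to 0.40 for Epn2 and -0.60 to 0.11 for Abcg1. In ABCG1KO against WT the ranges were -0.71 to 0.27 for Mmp9 and -0.75 to 1.74 for Timp3, and for Timp1 in LysM-DKO against ABCG1KO -0.57 to 1.91.

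Counts of called genes moved more. In LysM-DKO against WT, 3 genes were called under the minimum of 10 counts per library, 3 with a prior that was not robust, 8 in the fit of both groups alone, 299 with DESeq2 (2 of them members) and 0 to 6 with a library left out. In ABCG1KO against WT, 4 members were called with DESeq2; with a library left out, 853 (without ABCG1KO 1) to 1848 genes and 1 to 2 members were. In LysM-DKO against ABCG1KO, 948 genes were called in the fit of both groups alone, 2982 with DESeq2 (3 members) and 561 (without ABCG1KO 1) to 1960 with a library left out (0 to 1 members). Leaving out an ABCG1KO library assumes that the other varies like the remaining groups. Whether replicate numbers pair the libraries was not settled. Deviations from group means of same-numbered WT and LysM-DKO libraries correlated at 0.0275, 0.475 and -0.0504. Same-numbered pairs with an ABCG1KO library were at -0.108 to 0.218, and pairs with different numbers at -0.332 to 0.313. Deviations within a group of 2 or 3 libraries sum to 0, so these correlations cannot tell whether libraries were paired. With the number as a replicate block, 0, 1456 and 1024 genes were called in the 3 comparisons, 0, 2 and 1 of them members (Mmp9 in the last), and Timp1 was at -0.04 in LysM-DKO against ABCG1KO. Members held at least 102 counts in every library.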
